A study of Mus musculus with 4 samples.

Results

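Tmem176a (ENSMUSG00000023367) and Tmem176b (ENSMUSG00000029810) are 2 of the 33696 genes in the expression matrices of this study, and they are described here across the cell classes of the mouse peritoneal cavity. They were taken up because earlier results of these same libraries had shown Tmem176a lower after high-fat feeding, so the levels by diet below are a description and carry no test. Peritoneal lavage cells of wild-type (WT) mice were sorted for the leukocyte protein CD45 and sequenced by droplet RNA sequencing, with a second library per diet for B-cell receptors. The CD group received chow and the HFD group a high-fat diet, in both cases from 4 weeks of age for 3 months. The labels disagree on this point, since a protocol text gives high-fat feeding for the 2 groups alike; grouping here follows the titles and the series design, which name chow for CD. Each diet is 1 expression library, the number of mice behind it is not given, and every interval below is a 95% interval that covers counting error only.

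The proteins of this gene pair are small membrane-spanning proteins related to the MS4A family, the family of the B-cell protein CD20. They sit in endosomal and other intracellular membranes, and TMEM176B has been described as a cation channel that holds back the inflammasome, the complex that activates caspase-1 and interleukin-1β. In mice both mRNAs are known from conventional dendritic cells, monocytes and macrophages, and from interleukin-17-producing lymphocytes, gamma-delta T cells among them.

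The genes start close to each other and are read in opposite directions. In RefSeq (GRCm38.p6, a different build from the mm39 named by the submitters) both members matched, with 2 start windows for Tmem176a on the plus strand and 3 for Tmem176b on the minus strand, each from 250 bases before to 50 after a start. The starts of the 2 genes in these windows were 109 to 668 bases apart. The stretch below belongs to a window of each gene at once and is shown because the 2 mRNAs were found in the same barcodes and at like ratios in the comparisons that follow. It lies between the starts of these 2 windows, which are 282 bases apart, and holds neither of them. The start of the other Tmem176a window lies inside it. Capitals mark GGAAGT on either strand, the core letters that ETS-family factors bind.

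Shared start region, chr6:48841406-48841624, GRCm38.p6, plus strand: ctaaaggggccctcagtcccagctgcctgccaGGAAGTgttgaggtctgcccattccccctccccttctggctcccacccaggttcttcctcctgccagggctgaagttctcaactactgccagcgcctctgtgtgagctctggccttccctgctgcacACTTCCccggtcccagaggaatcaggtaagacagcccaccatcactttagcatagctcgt

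The 219 bases hold GGAAGT 2 times, 1 per strand, and CAGCTG 1 time. Of all 32851 RefSeq windows of 300 bases, 23.8% held GGAAGT and 16.3% held CAGCTG on either strand. The CCAAT box (searched as CCAAT, in 37.4% of all windows) had 0 matches in the 219 bases. The same held for the TATA box (searched as TATAAA, in 13.6% of windows) and the GC box (searched as GGGCGG, in 35.7% of windows). The matches do not overlap one another here, the motifs were picked after the sequence was seen, and a match describes letters, not binding. In RefSeq, 100% of the Tmem176a gene span lies inside the Tmem176b gene span. The windows above do not show this overlap, since genes read apart from those starts would not overlap, and the difference was not resolved. The counting setting for strand is not given in the sources used here, so some reads could have been credited to the wrong member.

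The CD matrix held 13227 barcodes with 73549582 unique molecular identifiers (UMIs, counted molecules) and the HFD matrix 6897 barcodes with 57630074. A barcode entered with 300 or more genes and no more than 10% of its UMIs mitochondrial, which left 13069 in CD at a median of 4464 UMIs and 6684 in HFD at a median of 6452. Of these, 1385 CD and 1259 HFD barcodes had neither a receptor contig nor a UMI of the B-cell genes Cd79a and Ms4a1, and the classes were drawn from them. T barcodes had at least 2 UMIs of Cd3e, Cd3d and Cd3g together (375 in CD, 407 in HFD). Dendritic barcodes had at least 2 of Cd209a and Flt3 (61 and 39), Folr2 macrophages at least 3 of Folr2 and Cbr2 (80 and 95), and large macrophages at least 3 of Prg4, Alox15 and Garnl3 (844 and 760). Of the Folr2 macrophages, 74 in CD and 89 in HFD also met the large macrophage rule, so those classes are largely the same cells and not separate evidence. The libraries shared 30 barcode names, 4 of them in the CD T class, 2 each in the CD dendritic and large macrophage classes, 1 each in the HFD T and large macrophage classes and 0 in the others.

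The labels were checked against marker genes outside the rules. All 8 T markers (Lck, Thy1 and others) were present in the T class, with a summed level of 2769 UMIs per 1000000 of the class sum (CPM) in CD and 2789 in HFD. All 8 dendritic markers (Zbtb46, Itgax and others) were present in the dendritic class at 1408 and 1274 CPM, and all 8 large macrophage markers (Gata6, Icam2 and others) in the large macrophage class at 10769 and 14541 CPM. Presence alone marks no class, since all 8 T markers were also detected in large macrophages, at a summed 37.5 and 45.4 CPM. Dendritic markers in large macrophages were at a summed 71.8 and 94.3 CPM. The dendritic class, however, held large macrophage markers at a summed 2279 and 2892 CPM, above the sum of its own markers. In the Folr2 class all 8 Folr2 macrophage markers were present in CD and 7 in HFD, where Cd209f had 0 UMIs, at a summed 4653 and 5687 CPM. Most of that sum was Pf4 (3639 and 5233 CPM), and the other markers were lower in HFD: Cd163 stood at 74.6 and 6.47 CPM, Lyve1 at 137 and 58.2 and Gas6 at 21.3 and 5.93. Large macrophage markers in that class were at a summed 9672 and 13324 CPM, with Gata6 at 46.2 and 98.1. The Folr2 class thus differed between diets in its own markers, and their part in the Folr2 values below was not tested. In the large macrophage class the same Folr2 markers were at a summed 4289 and 5727 CPM, so this sum does not set the Folr2 class apart.

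RNA of macrophages was found in every class. The summed level of 8 macrophage markers, Lyz2 and C1qa among them, was 9152 CPM in the CD T class and 4841 in HFD, with all 8 genes detected, against 65659 and 52969 CPM in large macrophages and 4422 and 2580 in B barcodes. In dendritic cells it was 18599 and 14006 CPM, above the T class. This level was lower in HFD in the T, B, dendritic and macrophage classes, and in Trdc T barcodes it was higher, at 787 and 2418 CPM. Its part in the diet differences of the pair was not tested except where barcodes without these UMIs are given below.

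Across classes the pair was highest in T barcodes with the gamma-delta receptor gene Trdc, then in dendritic cells, and of the T, dendritic, macrophage and B classes it was lowest in B cells. Tmem176b in the Trdc barcodes was at 2528 CPM in CD (2304 to 2767; 469 UMIs in 48 barcodes) and 897 in HFD (780 to 1027; 210 UMIs in 40 barcodes). In dendritic cells it was at 1058 CPM in CD (972 to 1149) and 734 in HFD (664 to 810). Both libraries have the same first places, and in HFD the intervals of the Trdc and dendritic levels overlap.

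Monocyte-type barcodes, 45 in CD and 43 in HFD with UMIs of Ccr2, Ly6c2 or F10 and of Csf1r, had Tmem176b at 1005 CPM (895 to 1124) and 431 (380 to 488). In CD this could not be told from the dendritic level, while in HFD it lay below it. Type 1 dendritic barcodes, chosen by Xcr1 and Clec9a and only 10 and 6 in number, had it at 393 CPM (283 to 531) and 504 (366 to 676), the 1 comparator class whose HFD value was the higher, with intervals that overlap. Only 4 of these barcodes in CD and 2 in HFD held Tmem176b, and the richest barcode held 55 and 37 UMIs of the pair. The 5 CD and 2 HFD barcodes of this type that met neither the T nor the dendritic rule held 0% of the UMIs of either member. All pair UMIs here thus came from barcodes that also met the T or dendritic rule, so this is not a separate class level. The values thus rest on very few cells, and the intervals do not cover the spread between cells. Tmem176b in Folr2 macrophages stood at 855 CPM in CD and 284 in HFD. In large macrophages it was at 721 (699 to 744) and 210 (201 to 218), and the whole T class, at 723 (683 to 765) and 221 (202 to 241), could not be told from them in either library. B barcodes, which carry a receptor contig and at least 2 UMIs of Cd79a and Ms4a1, were at 95.2 CPM in CD (7079 barcodes) and 48.9 in HFD (3674 barcodes).

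Tmem176a gave a similar order at a lower count. It stood at 1482 CPM in CD and 598 in HFD in Trdc barcodes, at 686 (617 to 760) and 537 (478 to 603) in dendritic cells and at 639 and 269 in monocyte-type barcodes. It was at 478 and 141 CPM in Folr2 macrophages, at 469 (437 to 503) and 142 (128 to 159) in the T class and at 372 (356 to 389) and 101 (95.3 to 107) in large macrophages. In B barcodes it was at 54.4 and 27.8. Folr2 macrophages and the T class could not be told apart in either library. Each molecule is counted once by its UMI, so counts need no length scaling. The number of Tmem176b UMIs per Tmem176a UMI was 1.54 in CD and 1.55 in HFD T barcodes, 1.54 and 1.37 in dendritic cells and 1.94 and 2.08 in large macrophages.

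**Figure D1:**
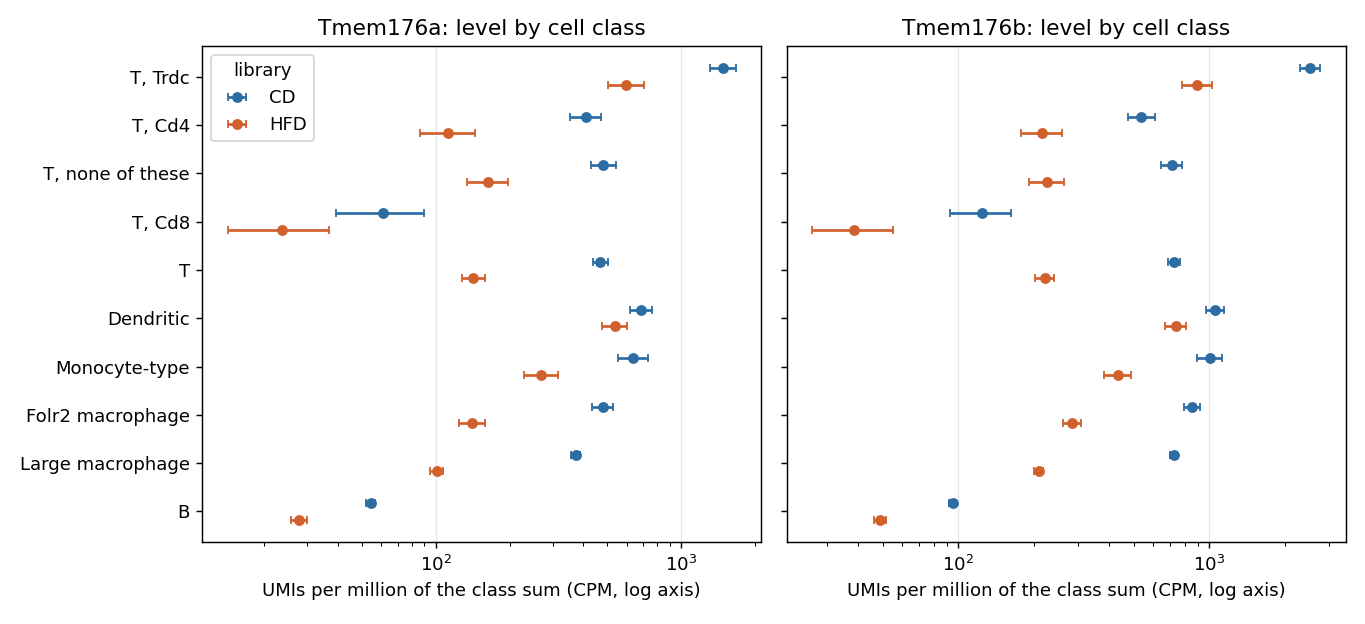
Level of Tmem176a (left) and Tmem176b (right) in UMIs per 1000000 of the class sum, on a log axis, by cell class and T subset. Points are the CD (blue) and HFD (orange) libraries and bars are 95% Poisson intervals; Trdc T barcodes lie furthest right, B barcodes near the left edge, and the HFD point lies left of the CD point in all 10 rows, least in dendritic cells.

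By diet, both members were lower in HFD in all 4 classes, by about the same factor in T cells and macrophages and by less in dendritic cells. Dendritic values in ranges of depth are given below. In large macrophages, the resident macrophages of the cavity, Tmem176b was 3.44-fold lower (log2 ratio of HFD over CD -1.78; -1.86 to -1.71) and Tmem176a 3.68-fold lower (-1.88; -1.99 to -1.78). In Folr2 macrophages the ratios were -1.59 for Tmem176b (-1.75 to -1.42) and -1.77 for Tmem176a. In the T class they were -1.71 (-1.86 to -1.56) and -1.72 (-1.91 to -1.53). In dendritic cells they were -0.53 for Tmem176b (-0.72 to -0.34) and -0.35 for Tmem176a (-0.58 to -0.13), and these intervals do not overlap those of the other 3 classes. B barcodes had ratios of -0.96 for Tmem176b and -0.97 for Tmem176a at their much lower level, with 81.6% of their pair UMIs in CD and 78.2% in HFD held by the richest 10% of barcodes. With 1 library per diet, whether the dendritic difference is smaller in the mice themselves could not be tested.

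Both members were past 2-fold lower in T cells, Folr2 macrophages and large macrophages. Of all genes with at least 20 UMIs over both libraries, 3.27% of 9652 were 2-fold or more lower in HFD in T cells, 3.39% of 8341 in Folr2 macrophages and 3.39% of 11451 in large macrophages; 2.41%, 5.24% and 3.73% were 2-fold or more higher. The pair was chosen with such values known, so nothing is read from that. In large macrophages 60 genes had a lower ratio than Tmem176a and 70 a lower one than Tmem176b, and in the T class 60 and 63. Neither member was past 2-fold in dendritic cells, where 2.39% of 5772 genes were 2-fold or more lower and 4.76% higher; 1066 genes there had a lower ratio than Tmem176a and 637 a lower one than Tmem176b. The median ratio over all genes was between -0.02 and 0.08 in the 4 classes.

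**Figure D2:**
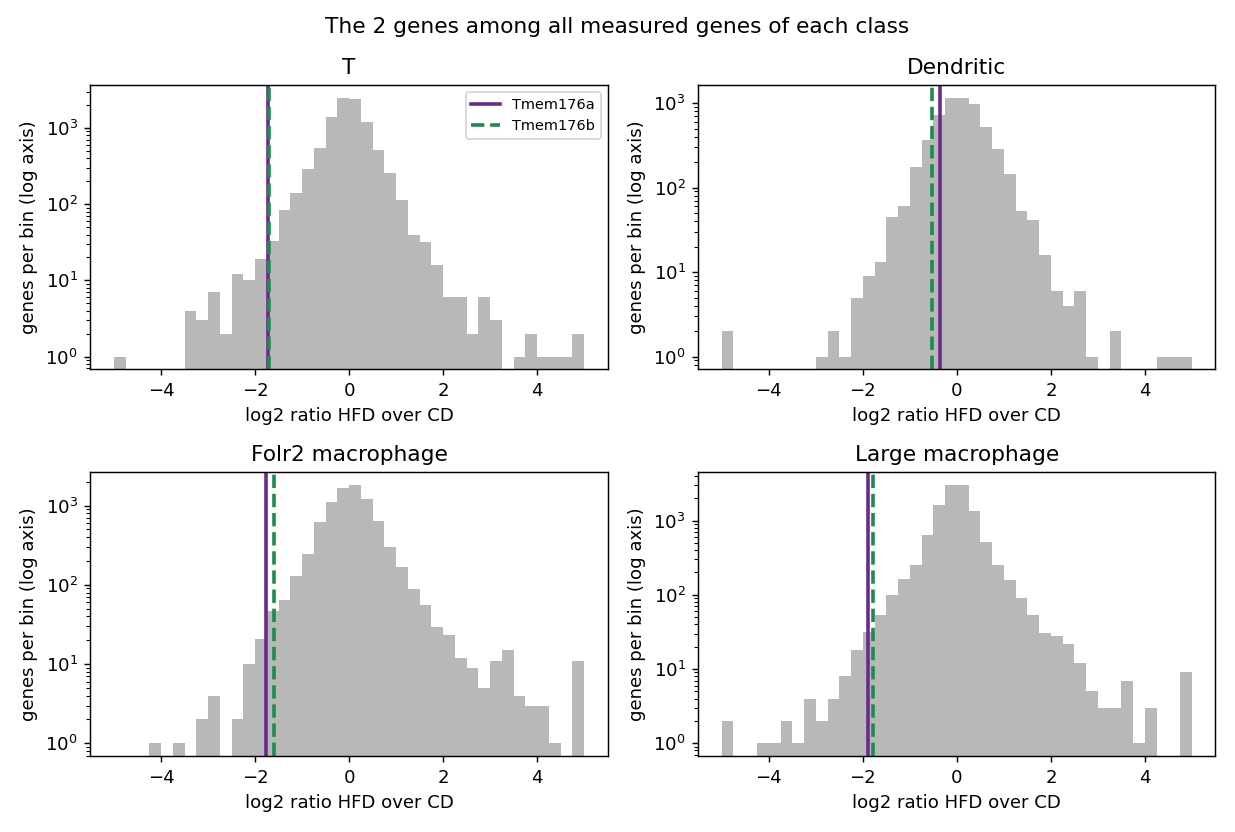
Number of genes (log axis) by log2 ratio of HFD over CD in each class, for genes with at least 20 UMIs over both libraries, with ratios past 5 in size drawn in the end bins. Lines mark Tmem176a (solid) and Tmem176b (dashed), which stand in the left tail in T cells and both macrophage classes and within the bulk in dendritic cells.

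The classes end at a threshold of few UMIs, and the pair was not confined to one side of it. In CD, barcodes with 1 UMI of the Cd3 genes had Tmem176b at 685 CPM and those with 2 at 515. In HFD these values were 209 and 43.5. For dendritic cells the values at 1 and 2 UMIs were 614 and 662 in CD and 292 and 29.8 in HFD, the last from 4 barcodes. For Folr2 macrophages the values at 2 and 3 UMIs were 663 and 843 in CD and 170 and 287 in HFD. For large macrophages they were 687 and 825 in CD, the last from 3 barcodes, and 194 and 94.6 in HFD.

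The libraries differ in depth, so shares of barcodes with a UMI were also taken after thinning each barcode to 2000 UMIs and leaving out shallower ones. Before thinning, both members were detected together in 36.3% of CD and 13.3% of HFD T barcodes (median depths 3897 and 5023 UMIs), and after thinning in 29.3% of 307 and 8.97% of 379. In B barcodes, taken as the background level (free RNA and mixed barcodes were not told apart), the shares were 8.33% and 6.56% (median depths 4641 and 5988.5), and 3.15% and 1.14% after thinning. The HFD T share thus lay nearer to the B share than the CD one did.

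In large macrophages both members were found in 61.7% of CD and 43.6% of HFD barcodes, at median depths of 4608 and 13477 UMIs. Thinned, the shares were 33.8% of 712 and 7.68% of 742, a difference of -26.2 points (-30.1 to -22.2) against -18.2 before thinning. In Folr2 macrophages (median depths 8534.5 and 18896 UMIs) the shares were 88.8% and 64.2%, and 53.2% and 13.7% after thinning. In dendritic cells (median depths 6326 and 14466 UMIs) they were 86.9% of 61 and 82.1% of 39, and 65.6% and 53.8% after thinning. The thinned dendritic intervals, 52.3 to 77.3 and 37.2 to 69.9, overlap.

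**Figure D3:**
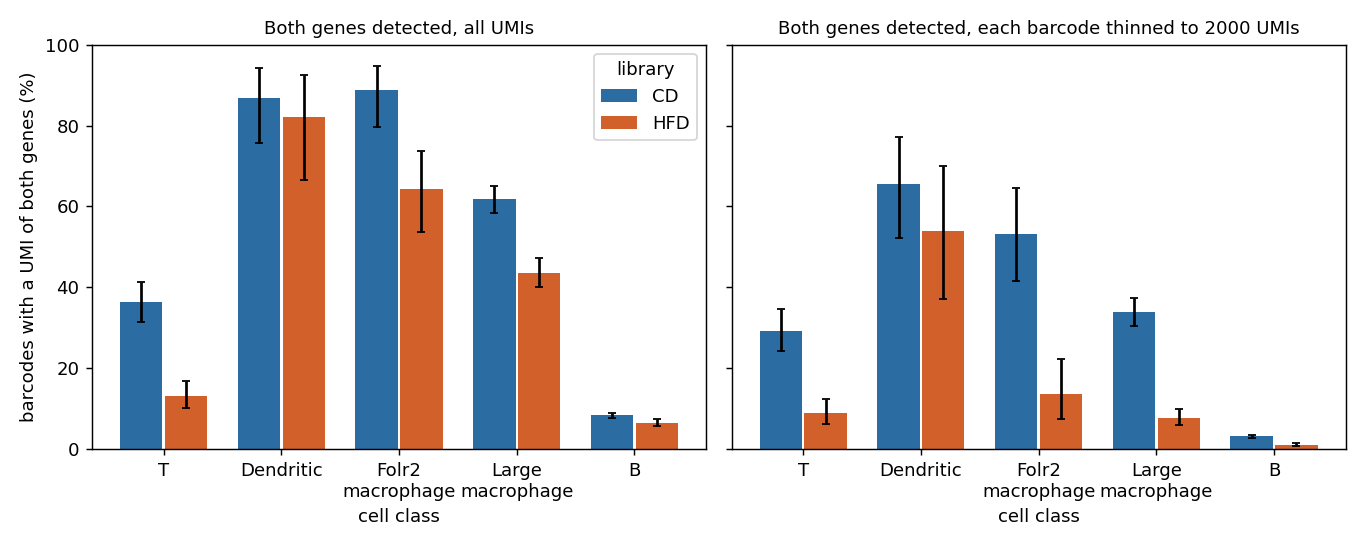
Share of barcodes with a UMI of both Tmem176a and Tmem176b by class in CD (blue) and HFD (orange), with all UMIs (left) and after thinning each barcode to 2000 UMIs (right), with exact 95% intervals. At equal depth the HFD bar is under the CD bar in all 5 classes, and the dendritic bars have overlapping intervals.

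Barcodes of like depth were also compared, in ranges of 2000 to 5000, 5000 to 10000 and 10000 to 20000 UMIs set after the data were seen. In large macrophages the log2 ratio of Tmem176b was -1.92, -1.96 (-2.17 to -1.77) and -1.75 in these 3 ranges, so the difference was about as large as over all depths. In Folr2 macrophages, with 2 HFD barcodes in the lowest range, it was at -1.57, -1.55 and -1.62, while Tmem176a was at -0.61 (-3.77 to 1.46), -1.09 (-1.72 to -0.50) and -1.70. In T barcodes Tmem176b was at -1.97 (-2.27 to -1.68), -1.32 (-1.54 to -1.09) and -2.30 (-2.70 to -1.91), the last from 16 and 27 barcodes. The T difference was thus found in each range and varied between them.

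In dendritic cells an interval below 0 was found for Tmem176b in the lowest of these ranges alone. At 2000 to 5000 UMIs, with 26 CD and only 4 HFD barcodes, Tmem176b was at -1.15 (-2.18 to -0.27) and Tmem176a at -0.80 (-1.90 to 0.14). At 5000 to 10000 UMIs, with 12 and 9 barcodes, they were at 0.26 (-0.26 to 0.77) and -0.037 (-0.74 to 0.66). At 10000 to 20000 UMIs, with 20 barcodes in each library, Tmem176b stood at 1079 and 920 CPM (-0.23; -0.47 to 0.0073) and Tmem176a at 693 and 695 (0.0027; -0.28 to 0.29). A difference in dendritic cells was therefore not detectable in the 2 deeper ranges. With all dendritic barcodes thinned to 2000 UMIs the ratios were -0.55 for Tmem176b and -0.62 for Tmem176a. Whether the dendritic difference varies with depth was not tested.

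The members were found in the same barcodes more often than their separate shares would give. In CD T barcodes Tmem176a was found in 38.9% and Tmem176b in 44.3%, whose product is 17.2%, while 36.3% held both. In HFD the shares were 15.0% and 21.4% with a product of 3.2%, and 13.3% held both. Of T barcodes with Tmem176a, 93.2% in CD and 88.5% in HFD also held Tmem176b. The pair's UMIs were concentrated: the 10% of T barcodes richest in them held 56.0% of all pair UMIs of the class in CD and 89.0% in HFD, and the single richest barcodes held 86 and 55 UMIs. In large macrophages the product was 53.5% against 61.7% observed in CD and 29.2% against 43.6% in HFD, and the richest 10% held 39.2% and 44.0%. Barcodes differ in depth, which by itself raises joint detection, and this was not separated here.

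Within T cells the pair was highest in the Trdc subset and lowest in the Cd8 subset. Trdc barcodes were 48 of 375 T barcodes in CD (12.8%; 9.59 to 16.6) and 40 of 407 in HFD (9.83%; 7.11 to 13.1), and held 38.5% of the T class UMIs of Tmem176b in CD and 41.0% in HFD. Barcodes with Cd4 only (84 and 92) had Tmem176b at 537 and 216 CPM. Barcodes with none of Trdc, Cd4, Cd8a and Cd8b1 (153 and 137) had it at 708 and 226. Barcodes with Cd8 only (86 and 127) had Tmem176b at 124 and 38.6 CPM and Tmem176a at 60.8 and 23.7, in HFD below the B level and in CD close to it, so no expression by these cells can be read from them.

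The difference in level between diets was found in the Trdc and Cd4 subsets and in barcodes with none of the subset genes, a mixed set that is split further below. For Tmem176b the log2 ratio was -1.49 in Trdc barcodes (-1.74 to -1.26), -1.32 in Cd4 barcodes and -1.65 in those with none of the subset genes (-1.93 to -1.38). For Tmem176a the ratios were -1.31, -1.86 and -1.56. In Cd8 barcodes they were -1.68 for Tmem176b and -1.36 for Tmem176a, from levels near or below those of B barcodes, and the share with both members differed by -0.30 points (-7.93 to 6.05), so no difference in these cells is read from them. In Trdc barcodes 8.1% of 3136 genes were 2-fold or more lower and 4.82% higher. With the HFD subset levels weighted by the CD shares of T class UMIs, the T class ratio was -1.54 for each member, against -1.71 and -1.72 as measured.

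T barcodes with the pair were compared with those without it (176 and 199 in CD, 94 and 313 in HFD, by a UMI of either member). The genes with the highest ratio of levels, of which 9 are given, were of several kinds. Trgv6 and Trdv4, receptor segments of the Vγ6 gamma-delta T cells, were at 372 CPM with the pair against 1.23 without it and at 496 against 0 in CD, and at 151 against 0 and 224 against 1.23 in HFD. Scart1, a scavenger receptor gene of gamma-delta T cells, was at 414 against 0 in CD and 151 against 6.74 in HFD. These 3 genes mark the interleukin-17 type of gamma-delta T cell.

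Of the other 6 genes, Cbr2, Clec10a and Vsig4 belong to macrophages and dendritic cells; Vsig4, a complement receptor, was at 146 CPM with the pair and 2.46 without it in CD, and at 68.7 and 1.23 in HFD. Mmp25, Ifitm1 and Ly6g5b made up the rest. In all, 309 of 2800 genes at 50 CPM or more in barcodes with the pair were above 2-fold in each library. The 8 macrophage markers were at a summed level of 16973 CPM with the pair against 776 without it in CD, and 12938 against 1450 in HFD. Genes of gamma-delta T cells and of macrophages were thus both higher in T barcodes with the pair.

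The lists of T cell genes described these barcodes further. Among 9652 genes with at least 20 UMIs, 15.5% were 2-fold or more higher with the pair in CD and 11.4% in HFD, and 6.78% and 6.83% were 2-fold or more lower. Of 21 genes of the type 17 list (genes of interleukin-17-producing T cells), 17 were measured, and 17 of 17 were 2-fold or more higher with the pair in CD and 16 of 17 in HFD. The summed level of the list was 2776 CPM with and 244 without the pair in CD, and 1726 and 289 in HFD. Of 9 naive T genes (Lef1, Satb1 and others) 6 were 2-fold or more lower with the pair in CD and 4 in HFD, and 0 were higher. Of 10 measured type 1 and cytotoxic genes 6 and 5 were lower and 0 were higher. MHC class II genes, which present antigen in dendritic cells and macrophages, were 2-fold or more higher for 7 of 11 in CD and 8 of 11 in HFD.

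**Figure D4:**
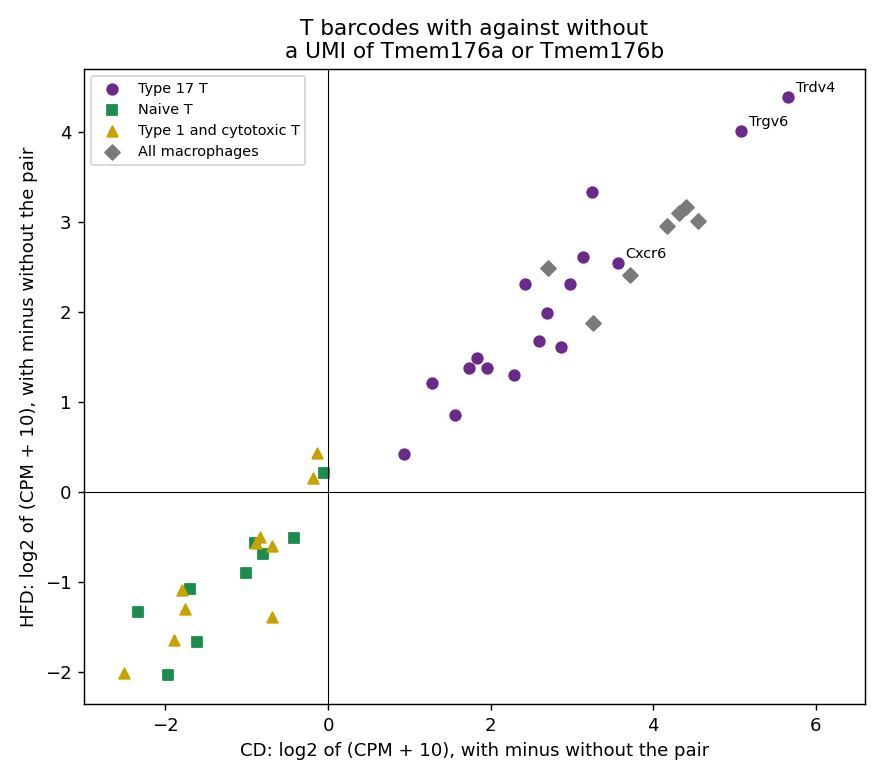
Each point is a gene of a list with at least 20 UMIs, placed by its difference between T barcodes with and without a UMI of the pair, as log2 of (CPM + 10), in CD (horizontal) and HFD (vertical). Type 17 genes and macrophage markers lie in the upper right, all higher with the pair in both libraries, while most naive and cytotoxic genes lie in the lower left.

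The type 17 genes were themselves lower in HFD. In the T class all 17 measured genes of the list had a ratio below 0 and 9 were 2-fold or more lower, where 3.27% of all genes were, with a median of -1.02 against -0.02 over all genes. In B barcodes, the background class, 14 of the 17 also had a ratio below 0, with a median of -1.36 against 0.01. Il1r1, the interleukin-1 receptor, was at -2.46 and Il23r, the interleukin-23 receptor, at -2.43, while Trgv6 was at 193 and 44.5 CPM (-2.12; -2.45 to -1.79). In Trdc barcodes 13 of 16 were 2-fold or more lower, where 8.1% of all genes were, with a median of -1.20 and Il23r at -2.41. Klrb1c, the NK receptor NK1.1, was at 0 UMIs in CD and 29 in HFD Trdc barcodes. Of 6 measured naive genes there, 3 were above and 3 below 0 with a median of 0.11, and 2 were 2-fold or more higher, Lef1 (2.51) and Satb1 (2.20). Il17a itself had a UMI in 2 CD and 1 HFD T barcodes.

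T barcodes with a UMI of Trgv6, Trdv4 or Scart1 were therefore set apart; the 3 genes were taken after their values were seen, so a high level of the pair in these barcodes follows from the choice. They were 77 of 375 T barcodes in CD (20.5%; 16.6 to 24.98) and 22 of 407 in HFD (5.41%; 3.42 to 8.07). In them Tmem176b was at 2567 CPM in CD (2373 to 2772) and 1439 in HFD (1249 to 1650), a log2 ratio of -0.83 (-1.07 to -0.61). Tmem176a was at 1624 and 1048 CPM (-0.63; -0.91 to -0.36). Both members were found together in 90.9% of these barcodes in CD and 81.8% in HFD, and they held 53.2% and 40.2% of the Tmem176b UMIs of the T class.

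T barcodes with none of the 3 genes had lower levels and a larger difference. Their macrophage markers were at a summed 10053 CPM in CD and 5090 in HFD, against 4036 and 1062 in barcodes with one of the genes, and the part of this RNA was not tested here. Tmem176b stood at 398 CPM in CD and 141 in HFD (-1.50; -1.70 to -1.30) and Tmem176a at 266 and 82.8 (-1.68; -1.95 to -1.42). With the HFD levels of these 2 sets weighted by the CD shares of T class UMIs, the T class ratio was -1.11 for Tmem176b and -1.05 for Tmem176a in place of -1.71 and -1.72. Among Trdc barcodes 41 of 48 in CD and 16 of 40 in HFD had a UMI of the 3 genes. Tmem176b in those barcodes stood at 2980 CPM in CD and 2075 in HFD (-0.52; -0.78 to -0.27). Tmem176a levels there, 1755 CPM in CD and 1498 in HFD (-0.23; -0.55 to 0.08), could not be told apart. Of barcodes with none of the subset genes, 119 of 153 in CD and 134 of 137 in HFD lacked such a UMI. In these the ratios were -1.04 for Tmem176a and -1.23 for Tmem176b, against -1.56 and -1.65 in the whole subset. In the rest of that subset they were -0.22 (-1.32 to 0.70) and -0.25 (-1.19 to 0.56).

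**Figure D5:**
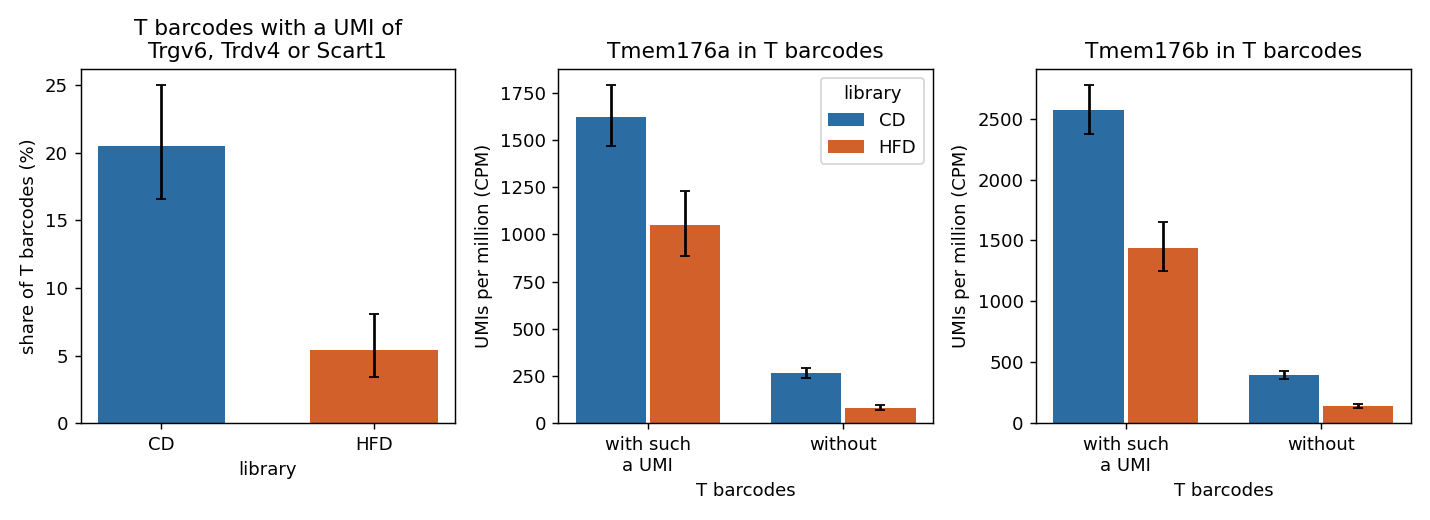
Left, share of T barcodes with a UMI of Trgv6, Trdv4 or Scart1, with exact 95% intervals; middle and right, level of Tmem176a and Tmem176b in T barcodes with and without such a UMI, with 95% Poisson intervals. The share is 20.5% in CD (blue) and 5.41% in HFD (orange), and Tmem176b is at 2567 and 1439 CPM with such a UMI and at 398 and 141 without.

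The T class difference was smaller in barcodes without macrophage UMIs. T barcodes with 0 UMIs of Csf1r, Adgre1, C1qa, C1qb, C1qc, Cd14 and Fcgr1 (165 in CD, 132 in HFD; Lyz2 was allowed) had Tmem176b at 577 and 261 CPM, a ratio of -1.15 (-1.41 to -0.89), and Tmem176a at 394 and 170 (-1.21; -1.54 to -0.89). Among the barcodes without macrophage UMIs, those with a UMI of the 3 genes had Tmem176b at 3144 and 1812 CPM (-0.80; -1.14 to -0.46) and the rest at 281 and 117 (-1.27; -1.68 to -0.87). Cd4 barcodes without these UMIs, 40 and 24, had it at 503 and 26.8 CPM (-4.23; -6.53 to -2.64). The HFD value is below the B level that follows, so the size of this ratio is not read. Trdc barcodes, 19 and 16, were at -0.79 (-1.14 to -0.45) for Tmem176b and -0.41 (-0.86 to 0.04) for Tmem176a. Those with none of the subset genes, 62 and 40, were at -0.98 and -1.56. Cd8 barcodes were at -0.53 (-2.95 to 1.90) and 1.80 (-1.36 to 7.36), from levels below those of B barcodes. B barcodes with 0 of these macrophage UMIs had Tmem176b at 40.1 and 35.5 CPM (-0.18; -0.39 to 0.03), against -0.96 over all B barcodes. Tmem176a in them was at 26.6 and 21.6 CPM (-0.30; -0.57 to -0.03).

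With the stricter list of Lyz2, Csf1r, Adgre1, Cd14, C1qa, C1qb, Flt3 and Cd209a all at 0, 28 CD and 13 HFD T barcodes were left. Tmem176a then had 23 UMIs in CD, or 224 CPM, and 0 in HFD, where 3 counts would be 54.9 CPM. These sets are too small to set beside the class.

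Within dendritic cells, Irf8 and Xcr1 were higher in barcodes without the pair and Mgl2 in those with it; these 3 genes were picked after their values were seen and describe no group. After thinning to 2000 UMIs, 53 of 61 CD and 29 of 39 HFD dendritic barcodes held a UMI of either member, which left 8 and 10 without. Irf8, a transcription factor of the type 1 subset, was at 769 CPM without and 163 with the pair in CD, and at 455 and 39.7 in HFD. Xcr1, its chemokine receptor, was at 58.0 and 10.9 CPM in CD, from 4 and 5 UMIs, and at 71.1 and 0 in HFD, from 10 and 0. Mgl2, a lectin of type 2 dendritic cells, was at 29.0 without and 228 with the pair in CD, and at 35.6 and 534 in HFD, with 2 and 5 UMIs in the barcodes without it. Of the 10 and 6 barcodes chosen by the type 1 genes Xcr1 and Clec9a, 4 and 2 held either member before thinning, against 58 of 61 and 34 of 39 dendritic barcodes. Only 5 of the 10 and 2 of the 6 met neither the T nor the dendritic rule, and these held 0% of the UMIs of either member. The 4 and 2 type 1 barcodes with the pair thus all met the T or dendritic rule as well and are not a separate set.

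Within large macrophages, barcodes with the pair had more Retnla and F13a1 and less Arg1. After thinning, 539 of 712 CD barcodes and 265 of 742 HFD barcodes held a UMI of either member. Retnla, an alternative-activation gene, was higher with the pair, at 1947 against 949 CPM in CD (log2 1.04; 0.95 to 1.13) and at 993 against 514 in HFD (0.95; 0.88 to 1.01). F13a1, the coagulation factor XIII A chain, was higher by 0.60 and 0.69 on the log2 scale. Arg1, arginase-1, was lower with the pair in both libraries, by a log2 ratio of -0.73 (-1.01 to -0.44) and -0.72 (-0.92 to -0.53). The genes named here were at or near the top of those that differed in the same direction in both libraries. Cbr2 (1.17 and 0.56) and Folr2 (0.34; -0.06 to 0.75, and 0.85), the genes that define the Folr2 class, were also among those higher with the pair. Before thinning, 74 CD and 89 HFD large macrophage barcodes met the Folr2 rule, and their part in this split was not tested.

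Most genes tied to the pair by family or function were within 2-fold between diets in macrophages and dendritic cells, as were most genes. Of all genes, 3.39% were 2-fold or more lower in HFD and 3.73% higher in large macrophages, and 2.39% and 4.76% in dendritic cells. In Folr2 macrophages these shares were 3.39% and 5.24%. A list with none past 2-fold is near such shares, so nothing is read from it. Of 7 measured MS4A genes in large macrophages 3 were 2-fold or more lower: Ms4a4a (-2.61, from 18 and 6 UMIs), Ms4a6c (103 and 45.0 CPM, -1.20; -1.38 to -1.02) and Ms4a4c (-1.13). Ms4a6d was at -0.79. The list had a median of -0.79 against -0.01 over all genes. None of 13 inflammasome genes was past 2-fold either way in large macrophages, with a median of -0.01; Pycard, the adaptor, was at 0.12, Casp1 at -0.05, Nlrp3 at -0.52 and Nlrp1b at -0.77, while Il1b (0.98) rested on 5 and 20 UMIs. None of 13 endolysosome and trafficking genes was past 2-fold, with a median of -0.08.

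MHC class II genes were lower in large macrophages, with all 11 below 0 and a median of -1.19 against -0.01 over all genes. Of the 11, 6 were 2-fold or more lower, where 3.39% of all genes were. Cd74, the invariant chain, was at 2107 and 716 CPM (-1.56; -1.60 to -1.51) and H2-Aa at -1.34. In dendritic cells none of the 11 was past 2-fold, where 2.39% of all genes were lower and 4.76% higher, and the median was -0.04. None of 11 inflammasome genes was past 2-fold there either, and of 6 MS4A genes only Ms4a6d was (-1.23; -2.75 to 0.13, from 16 and 7 UMIs). In Folr2 macrophages 2 of 5 MS4A genes were 2-fold or more lower, Ms4a4b (-1.58) and Ms4a6b (-1.48), both also known from T cells.

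Over the 9 class sums with at least 50 barcodes (T, Folr2 macrophage, large macrophage and B in both libraries and dendritic in CD) the 2 members had a Pearson r of 0.99 with each other on log2 of (CPM + 10). Among 2127 other genes at 100 CPM or more, those most like Tmem176a were Zfp36l2 (0.96), an RNA-binding protein, Cyb5a (0.94), cytochrome b5, M6pr (0.91), a mannose-6-phosphate receptor, Cyth4 (0.91) and Ubxn4 (0.88). For Tmem176b they were Zfp36l2 (0.95), M6pr (0.94), Cyb5a (0.93), Itm2c (0.91) and Cyth4 (0.89). The ranges were much narrower than those of the pair: Zfp36l2 was at 282 and 259 CPM in the T class and at 280 and 151 in large macrophages. The sums share 2 libraries and overlapping barcodes, so these values only describe them.

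In the whole libraries Tmem176b stood at 260 CPM in CD and 140 in HFD and Tmem176a at 147 and 76.0. Barcodes with a receptor contig or a B-cell UMI were 89.4% of CD and 81.2% of HFD barcodes and held 68.9% and 57.4% of the Tmem176b UMIs, while large macrophages without such a mark or an earlier class held 16.6% and 22.6%. NK barcodes, 16 in CD and 23 in HFD, had Tmem176b at 841 CPM from 41 UMIs and 78.4 CPM from 6 UMIs and Tmem176a at 308 CPM from 15 UMIs and 13.1 CPM from 1 UMI, in HFD below the B level, and 6 CD barcodes against 1 in HFD held 5 or more UMIs of the pair.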

How the data were processed

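The deposited matrices hold raw counts (UMIs for each gene in each barcode), not normalized. Per the file headers the software was Cell Ranger 8.0.1; per the submitters' processing notes it was version 6.0.1, with mm39 as the genome and Seurat 4.3.0. Counts were summed per class and library and given as CPM with exact Poisson intervals. Log2 ratios carry exact conditional intervals, shares Clopper-Pearson and their differences Newcombe intervals, with Python 3.11.15, numpy 2.4.6, scipy 1.17.1 and pandas 2.3.3. With 1 library per diet no test was made. "2-fold or more" means a log2 ratio past 1 or -1 (or equal to it) among genes with at least 20 UMIs over both sums. Ratio and interval code was tested on simulated data.

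The pair, the classes and the gene lists were chosen with earlier results of these data known. Named genes are the pair, the 5 genes most like each member, up to 4 genes of largest ratio per list in the class described, with genes that define a subset, and the 10 genes highest in T barcodes with the pair. Genes named in dendritic cells and large macrophages by presence of the pair, and single list genes beyond this rule, were chosen after their values were seen. Of the type 17 list, 2 symbols did not match the feature names. A gene of that list, which is also among the 10 highest, and 1 of the naive list are not reported here and were left out of the lists and their counts. No doublet caller was run: barcodes with B-cell marks were left out, barcodes meeting 2 class rules were kept (28 CD and 27 HFD T barcodes also met the large macrophage rule), and the closing section gives the T and Folr2 values without them. Barcodes under 2000 UMIs were left out of thinning, 68 CD and 28 HFD in the T class.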

Additional observations from a re-analysis of the deposited data

How the results depend on the processing

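No paired analysis was possible because each diet has 1 expression library and no test was made, and no replicate could be left out. The log2 ratios of HFD over CD are given as Tmem176a then Tmem176b; for these, 62 values moved by less than their counting interval, 39 moved by more and 2 reversed. In the T class they were -1.81 and -1.73 in barcodes of 1 class rule only, -1.44 and -1.40 with B-marked barcodes kept, -1.52 and -1.88 thinned to 1000 UMIs, -1.47 and -1.32 at 5000 to 10000 UMIs, and -1.21 and -1.15 without macrophage UMIs (Lyz2 allowed). Without any macrophage or dendritic UMI (28 and 13 barcodes) Tmem176b was at -3.48 and Tmem176a had 0 UMIs in HFD. Without a UMI of Trgv6, Trdv4 and Scart1 Tmem176b was at -1.50; it was at -1.87 with the B level subtracted and -1.54 with the CD subset shares. In large macrophages they were -1.56 and -1.52 with B-marked barcodes kept, -2.09 and -1.96 at 5000 to 10000 UMIs, and -2.12 and -1.96 with the B level subtracted; Tmem176b was at -1.65 thinned to 2000 and -1.90 thinned to 1000 UMIs.

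In Folr2 macrophages they were -2.04 and -1.91 in the 6 CD and 5 HFD barcodes of that class rule only, -1.37 and -1.28 with B-marked barcodes kept and -1.40 and -2.15 thinned to 1000 UMIs; Tmem176a was at -1.32 thinned to 2000 UMIs and -1.09 at 5000 to 10000. In dendritic cells Tmem176a was at -0.62 thinned to 2000 UMIs, -0.61 with each barcode weighted equally and -0.037 at 5000 to 10000 UMIs, where Tmem176b reversed to 0.26 (12 and 9 barcodes). At 2000 to 5000 UMIs Tmem176a was at -0.80 in dendritic cells (26 and 4 barcodes) and -0.61 in Folr2 macrophages (12 and 2), and Tmem176b at -1.97 in the T class, -1.15 in dendritic cells and -1.92 in large macrophages. At 10000 to 20000 UMIs they were -2.37 and -2.30 in the T class (16 and 27 barcodes) and 0.0027, a reversal, and -0.23 in dendritic cells (20 in each). 2 subset values also reversed on few UMIs: Tmem176b in Trdc barcodes without a UMI of Trgv6, Trdv4 and Scart1 (1.96; 7 and 24 barcodes) and Tmem176a in Cd8 barcodes without macrophage UMIs (1.80). Thinning to 2000 UMIs moved the differences in share, to -33.4, -40.6 and -39.5 points in Folr2 macrophages and -29.5, -36.7 and -26.2 in large macrophages (Tmem176a, Tmem176b, both); the other 18 shares moved by less than their interval. Some subsets gave no value, with both or 1 library at 0 or, for Cd8 barcodes, HFD below the B level. The causes were not tested. The depth ranges, the removal of macrophage UMIs with Lyz2 allowed and the split by these genes were chosen after seeing the data. Counting error is the only error these libraries give, and with 1 library per diet no class allows a test.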
